A study of Sus scrofa with 12 samples.

Results

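The miR-183 cluster is a group of 3 miRNAs, small regulatory RNAs that lower the output of the messages they pair with, named miR-183, miR-96 and miR-182. They were taken by name from a table of mature pig miRNAs in which each has 1 row, ssc-miR-183, ssc-miR-96-5p and ssc-miR-182, so the cluster makes up 3 of 252 rows. The miRNAs came from extracellular vesicles, which are small membrane-bound particles shed by cells, pelleted by ultracentrifugation from medium of bone marrow mesenchymal stromal cells. The cells came from juvenile Yucatan minipigs of wild-type genotype, had been expanded on plates to passage 3 and were frozen before use. Cells of 4 donors were each grown in 3 ways, which gave 12 libraries, 4 per culture method and 1 per donor and method. The first method was a perfusion bioreactor in which medium circulated at 4 mL/min over cells on a scaffold, with no serum content given. The second was microcarriers, small beads on which cells attached in a stirred spinner flask, for 2 h without fetal bovine serum and then with 10%. The last was the flat tissue culture plate, seeded at 5000 cells per cm2 in medium with 10% fetal bovine serum.

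The 3 miRNAs are cut from neighbouring hairpins of 1 primary transcript in mammals, and they are known as markers of sensory cells, among them photoreceptors and the hair cells of the inner ear. In humans and mice, changes in the seed of miR-96, the stretch that pairs with targets, cause hearing loss. The seeds of the 3 are closely similar, and miR-96 and miR-182 are known to repress FOXO transcription factors in human and mouse cells, while miR-183 is known for repressing EGR1 and the cytoskeletal linker ezrin in human cells. The cluster is also found in many epithelia and is often raised in carcinomas. In the RefSeq annotation of assembly Sscrofa11.1 the pig genes lie in the order MIR183, MIR96 and MIR182, between UBE2H and NRF1, with 0 other annotated genes among them.

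Values are normalized read counts, the deposited reads of a miRNA divided by 1 factor per library. The cluster was a small part of the vesicle profile, with the 3 members together at 0.0366% of the normalized counts on average over 12 libraries. By mean level miR-182 ranked 106 of 252, miR-183 ranked 127 and miR-96-5p ranked 201. The libraries held from 264407 reads (plate, donor 2) to 3253003 reads (plate, donor 4), with 671012 to 1614726 reads in perfusion and 607776 to 2244584 on microcarriers. The labelled stromal source was checked against 11 stromal miRNAs, among them miR-21-5p, miR-143-3p and miR-199a-3p, which matched 12 rows. Their summed level was 528016.6 to 636753 in perfusion, 433851 to 676297 on microcarriers and 369789.6 to 572349 on plates, and none of the 12 was at 0 in any library. None of the 9 epithelial miRNAs looked for (the miR-200 family with miR-141 and miR-429, miR-203, miR-205 and miR-375) had a row in the table analysed here.

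miR-183 stood at 190.3, 134, 44.7 and 112 normalized counts in perfusion vesicles of donors 1, 2, 3 and 4. It stood at 244, 207, 79.8 and 194 on microcarriers and at 194, 83.8, 51.5 and 76.5 on plates, in the same order of donors. Donor 3 was the lowest and donor 1 the highest in all 3 cultures, and the ranges of the cultures overlapped. The means were 120.4 ± 60.2 in perfusion, 181 ± 70.9 on microcarriers and 101 ± 63.0 on plates (SD, n = 4 each). The coefficient of variation within a culture, 39.1% to 62.2%, shows how far the donors lay apart.

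miR-96-5p, the member whose seed is linked to hearing loss, was the least abundant. It stood at 49.9, 48.6, 13.5 and 21.7 normalized counts in perfusion vesicles of donors 1 to 4, at 18.4, 19.1, 19.1 and 36.2 on microcarriers, and at 25.3, 14.8, 6.28 and 9.36 on plates. The means were 33.4 ± 18.6 in perfusion, 23.2 ± 8.64 on microcarriers and 13.9 ± 8.38 on plates (SD, n = 4 each). Perfusion libraries of donors 1 and 2 lay above every microcarrier and plate library, and those of donors 3 and 4 lay within the plate range. These levels rest on few reads, 10 to 69 per library in perfusion, 16 to 35 on microcarriers and 3 to 33 on plates. The 3 reads of plate donor 2 have an exact 95% Poisson interval of 0.619 to 8.77 reads, and the 10 reads of perfusion donor 3 one of 4.80 to 18.4. Such intervals cover counting error only.

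miR-182, the most abundant member, stood at 313, 260.3, 133 and 259 normalized counts in perfusion vesicles of donors 1 to 4. It reached 470.4, 430.2, 238 and 479 on microcarriers and 316, 301, 127 and 139 on plates. The microcarrier libraries of donors 1, 2 and 4 lay above every perfusion and plate library, and that of donor 3 lay within both other ranges. The means were 241 ± 76.5 in perfusion, 404 ± 113 on microcarriers and 221 ± 101 on plates (SD, n = 4 each). Reads of miR-182 ran from 61 (plate, donor 2) to 894 (microcarriers, donor 1).

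**Figure D1:**
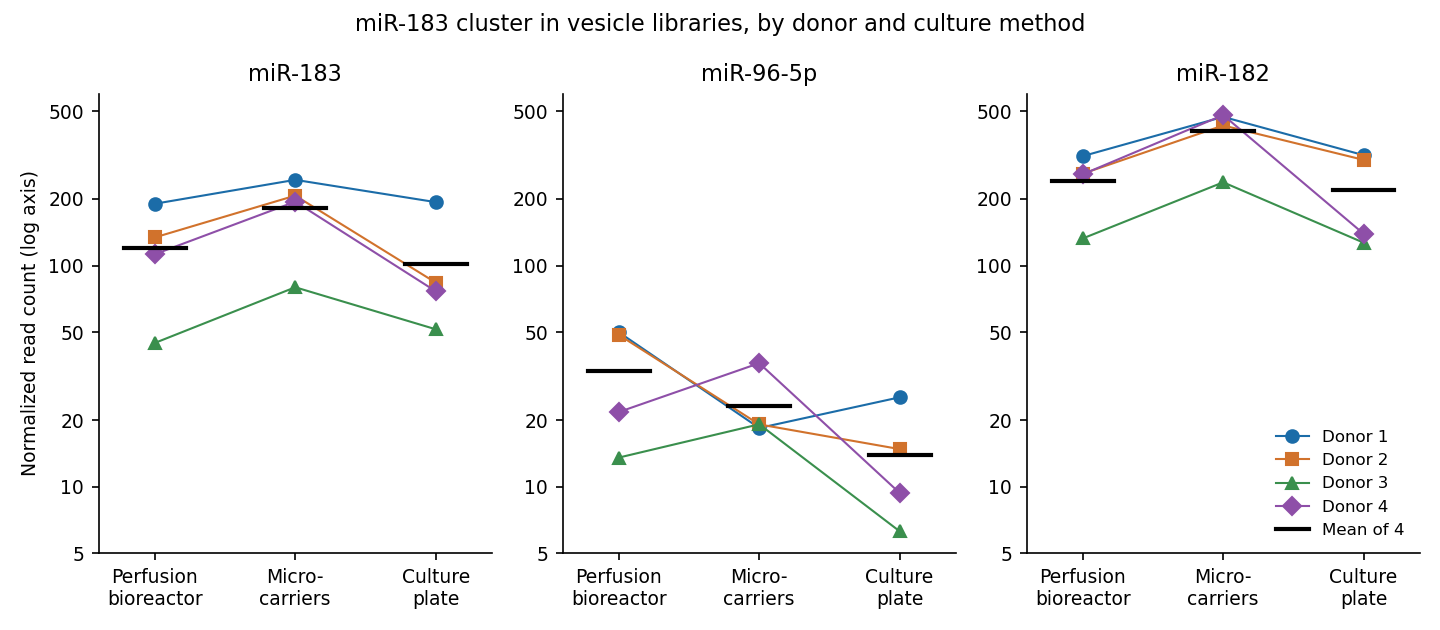
Normalized read counts (log axis) of miR-183, miR-96-5p and miR-182 in the 12 libraries, by culture method, with 1 coloured line per donor and a black bar at the mean of 4 libraries. For miR-183 and miR-182 the microcarrier library is the highest of the 3 in every donor and donor 3 is the lowest in every culture, while the lines of miR-96-5p cross.

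The order of the culture means was microcarriers, perfusion, plate for miR-183 and miR-182, and perfusion, microcarriers, plate for miR-96-5p. Neighbours in that order had overlapping libraries for each of the 3 members. The means of miR-182 on microcarriers and in perfusion, and those of miR-96-5p on microcarriers and plates, lay further apart than 1 SD of either culture, and the other 4 neighbouring pairs did not exceed the larger SD. None of the 9 comparisons passed limma with culture method as the only factor at an adjusted p of 0.05 over the 252 miRNAs.

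The comparison of perfusion with plates takes in flow and scaffold together. Plates also had 10% fetal bovine serum and a seeding of 5000 cells per cm2, and neither is given for perfusion. These differences between the cultures cannot be told apart. miR-96-5p was 1.97, 3.29, 2.15 and 2.32 times as high in perfusion as on plates in donors 1, 2, 3 and 4, that is, higher in 4 of 4 donors. The log2 fold change was 1.18 ± 0.53 (SE), with a 95% interval of 0.052 to 2.31, and did not pass (limma adjusted p = 0.140). miR-183 and miR-182 were each higher in 2 donors and lower in 2. The fold changes were 0.25 ± 0.51 for miR-183 (interval -0.85 to 1.35, adjusted p = 0.773) and 0.18 ± 0.40 for miR-182 (interval -0.67 to 1.03, adjusted p = 0.786). Both turned to just below 0 without plate replicate 3 (-0.013 and -0.040), and that of miR-183 also without perfusion replicate 1 (-0.028). The median over all 252 miRNAs was -0.06. Of the 3 members 0 were called, against 20.6% of the 252 miRNAs (at an unadjusted p under 0.05, 79 or 31.3%, miR-96-5p among them). Perfusion and plate libraries overlapped for all 3 members and did not overlap for 23.0% of the 252. Higher in 4 of 4 donors held for 1 of the 3 members and for 21.8% of the 252. With limma-voom on recovered reads and donor as a block, miR-96-5p alone of the members was called (1.24 ± 0.42, adjusted p = 0.0408), against 29.8% of all miRNAs in that fit. With the block but on log2 values it was not (limma adjusted p = 0.0820), where 25.4% of all miRNAs were.

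Stirred culture on beads was set against plates in the same way. miR-183 was 1.26, 2.47, 1.55 and 2.54 times as high on microcarriers in donors 1 to 4, and miR-182 was 1.49, 1.43, 1.88 and 3.44 times as high. Both were therefore higher in 4 of 4 donors, as 18.7% of the 252 miRNAs were, with 3 of the 4 microcarrier libraries above all plate libraries. For miR-183 donor 4 was above only narrowly, at 194.4 on microcarriers (86 reads) against 193.6 in plate donor 1. The log2 fold change was 0.94 ± 0.40 (SE) for miR-182 (95% interval 0.091 to 1.79, limma adjusted p = 0.191) and 0.90 ± 0.51 for miR-183 (interval -0.20 to 2.00, adjusted p = 0.301). miR-96-5p was higher in donors 2, 3 and 4 and lower in donor 1, at 0.81 ± 0.53 (interval -0.33 to 1.94, adjusted p = 0.358). The median of all 252 was 0.11. None of the 3 was called, against 2.38% of the 252 (at an unadjusted p under 0.05, 51 or 20.2%, miR-182 among them). Libraries of both cultures overlapped for all 3 members, and did not for 11.9% of the 252. Perfusion and microcarriers were each set against the same 4 plate libraries.

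Donor as a block in the same fit narrowed the errors of miR-182 and miR-183 in this comparison to 0.27 each. The adjusted p became 0.0508 for miR-182 and 0.0585 for miR-183, with the block calling 9.13% of the 252 miRNAs. On recovered reads with limma-voom and the block, both passed, miR-182 at 0.96 ± 0.26 (adjusted p = 0.0274) and miR-183 at 0.84 ± 0.25 (adjusted p = 0.0436), where 15.9% of all miRNAs did. That fit was added after the data were seen, and its voom counterpart without the block called neither (adjusted p = 0.183 for miR-182 and 0.294 for miR-183).

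Markers of other cells also varied with culture method, and the summed level of each list is given here. The 3 red cell miRNAs (miR-144, miR-451 and miR-486) summed to 28.9 to 334 normalized counts in perfusion, 2074 to 6742 on microcarriers and 568 to 2528 on plates. The 4 white cell rows (both arms of miR-142, miR-150 and miR-223) summed to 9.75 to 50.5, 274 to 2110.4 and 131 to 701 in the same order of cultures, with miR-223 at 0 in all perfusion libraries. Both arms of the endothelial miR-126 together came to 119 to 191, 945 to 6092 and 583 to 2184, and the liver miRNA miR-122-5p to 7.24 to 40.8, 178 to 1911 and 141 to 1088. All 10 of these rows were called lower in perfusion than on plates and lower in perfusion than on microcarriers, against 10.3% and 9.92% of the 252 miRNAs called lower. Between microcarriers and plates limma called 0 of the 10, against 2.38% of the 252, and 1 of them (miR-451) had an unadjusted p under 0.05. Gut and liver miRNAs (3 of 4 names measured) summed to 17.6 to 39.0 in perfusion, 94.9 to 583 on microcarriers and 39.4 to 169 on plates. Muscle miRNAs (3 of 5) summed to 253 to 884, 237 to 999.7 and 749.7 to 1981, and neural miRNAs (7 of 8) to 2166 to 2766, 818 to 1444 and 1398 to 2922, in that order of cultures. The 7 neural rows hold 5 distinct ones, as the 3 miR-9 rows are identical. Rows miR-129a-5p and miR-129b were also nearly equal (means of 620 and 622 in perfusion), so the neural sums count repeats. Calls on these lists were mixed. In perfusion against plates limma called 1 of 3 gut and liver rows and 2 of 3 muscle rows lower. It called 1 of 7 neural rows higher there (miR-129a-3p), against 20.6% of the 252 called in either direction. In perfusion against microcarriers 2 of 3 gut and liver rows were called lower and 1 of 3 muscle rows higher (miR-133a-3p). None of the neural rows was called there, against 15.5% of the 252. The part of all these markers in the levels of the cluster was not tested. Fewer contributing vesicles of a source and less miRNA per vesicle cannot be told apart in these libraries. Fetal bovine serum, at 10% on microcarriers and plates and not given for perfusion, cannot be told apart from culture method either. Whether these miRNAs came from cells or from serum was not tested.

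Between perfusion and microcarriers, the culture methods that move the medium, miR-183 was lower in perfusion in 4 of 4 donors, at 0.779, 0.647, 0.560 and 0.579 of its microcarrier level in donors 1 to 4. miR-182 was likewise lower in 4 of 4 donors, at 0.664, 0.605, 0.557 and 0.540 of it. These within-donor ratios lay close together although the levels of the donors did not. The log2 fold change was -0.76 ± 0.40 (SE) for miR-182 (95% interval -1.61 to 0.091, limma adjusted p = 0.218) and -0.65 ± 0.51 for miR-183 (interval -1.75 to 0.45, adjusted p = 0.407). miR-96-5p was higher in donors 1 and 2 (2.71 and 2.54 times) and lower in donors 3 and 4 (0.707 and 0.601), with a fold change of 0.38 ± 0.53 (interval -0.75 to 1.51, adjusted p = 0.647). Of the 3 members 0 were called, against 15.5% of the 252 miRNAs (at an unadjusted p under 0.05, 74 or 29.4%, none of them a member), and lower in 4 of 4 donors held for 23.4% of the 252. The cultures overlapped for all 3 members and did not for 24.6% of the 252. With donor as a block limma called none of the 3 and 23.4% of all. The errors of miR-182 and miR-183 narrowed to 0.27 each in that fit. Its limma adjusted p was 0.0645 for miR-182, 0.107 for miR-183 and 0.555 for miR-96-5p. Limma-voom with donor as a block called miR-182 (-0.75 ± 0.26, adjusted p = 0.0461), and it called 29.8% of all miRNAs.

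**Figure D2:**
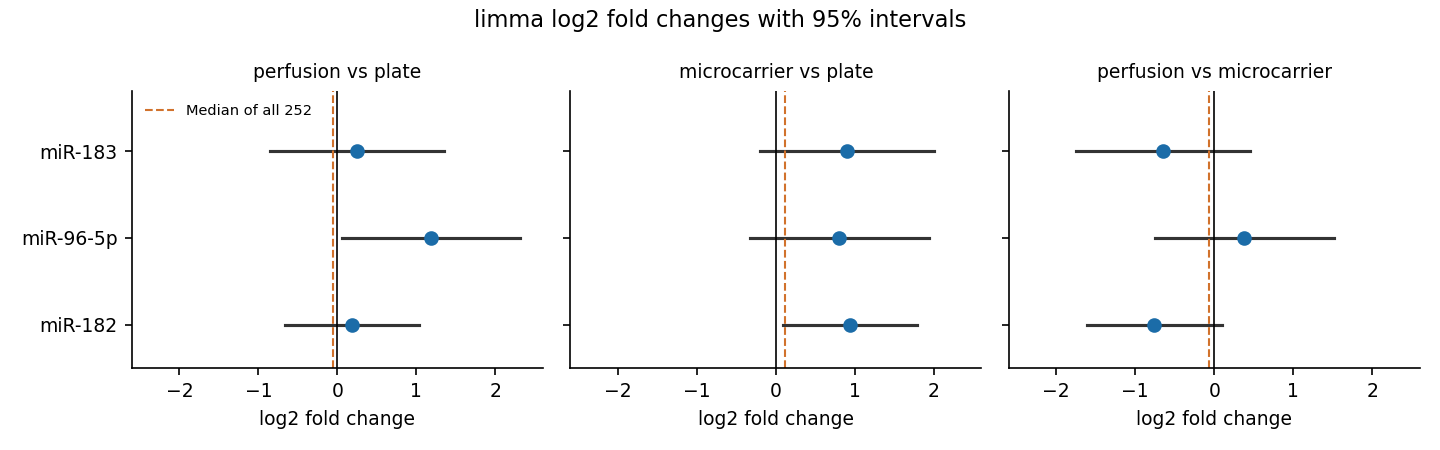
Log2 fold changes of the 3 members in the 3 comparisons from limma on log2(value + 1), as points with 95% intervals, beside the median of all 252 miRNAs (dashed). Culture method was the only factor in the fit. The intervals of miR-96-5p in perfusion against plate (0.052 to 2.31) and of miR-182 on microcarriers against plate (0.091 to 1.79) lie just above 0, and the other 7 cross it.

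Since the 3 miRNAs are cut from neighbouring hairpins, their ratios within a library show whether they varied together. Such a plain ratio does not depend on how libraries were scaled. Differences and tests of ratios are on a log2 scale with 1 added to each value, which makes them depend on scaling in part. miR-182 made up 56.5% to 75.3% of the cluster's normalized counts, miR-183 made up 21.0% to 36.2% and miR-96-5p made up 2.51% to 11.0%. The share of miR-96-5p was 8.16% ± 2.36 in perfusion, 4.05% ± 1.57 on microcarriers and 4.00% ± 0.583 on plates (SD, n = 4 each).

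The ratio of miR-96-5p to miR-182 was 0.160, 0.187, 0.102 and 0.0841 in perfusion libraries of donors 1 to 4. It was 0.0391, 0.0444, 0.0804 and 0.0755 on microcarriers and 0.0803, 0.0492, 0.0495 and 0.0673 on plates. All 4 perfusion libraries thus lay above all 8 others, donor 4 only narrowly. The miR-96-5p reads behind them were few, 10 in perfusion donor 3, 3 in plate donor 2 and 16 in microcarrier donor 4. Counting error was not carried into the ratios and could close the gap. Among single miRNAs, perfusion libraries did not overlap plate libraries for 23.0% of the 252, nor microcarrier libraries for 24.6%. The mean log2 ratio was higher in perfusion by 1.00 ± 0.30 (SE) against plates and by 1.14 ± 0.36 against microcarriers, each with an exact two-sided permutation p of 0.0286, the smallest that 4 against 4 libraries allow. The ratio of miR-96-5p to miR-183 was 0.193 to 0.362 in perfusion, 0.0754 to 0.240 on microcarriers and 0.122 to 0.176 on plates. It was higher in perfusion than on plates by 0.93 ± 0.22 on the log2 scale (exact permutation p = 0.0286). It was higher than on microcarriers by 1.03 ± 0.44 (exact permutation p = 0.0571), in 4 of 4 donors in both cases. These permutations did not keep libraries of a donor together. Paired by donor, both ratios had an exact permutation p of 0.125 against plates and against microcarriers (adjusted p = 0.225 each). With 4 donors no smaller paired p is possible.

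Over the 9 ratio tests the adjusted p of the 3 at the smallest exact permutation p was 0.0857, so none passed, and 6 would have had to reach that floor for any to pass. With 10 in place of 1 added to each value, both differences between perfusion and plates were smaller, at 0.58 over miR-183 and 0.64 over miR-182 (exact permutation p = 0.0857 each). Between microcarriers and plates both ratios of miR-96-5p differed by less than their errors (-0.14 ± 0.30 over miR-182 and -0.09 ± 0.41 over miR-183, exact permutation p = 0.657 and 0.857). The ratio of miR-183 to miR-182 averaged 0.474 ± 0.116 in perfusion, 0.435 ± 0.0818 on microcarriers and 0.462 ± 0.150 on plates (SD, n = 4 each). Its 3 differences on the log2 scale were 0.07 ± 0.31 (perfusion minus plate), -0.05 ± 0.29 (microcarriers minus plate) and 0.11 ± 0.23 (perfusion minus microcarriers), with exact permutation p of 0.886, 0.886 and 0.600. Within donors it was higher in perfusion than on microcarriers in 4 of 4, with a paired exact permutation p of 0.125, the smallest that 4 donors allow (0.225 adjusted over the 9 ratio tests).

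**Figure D3:**
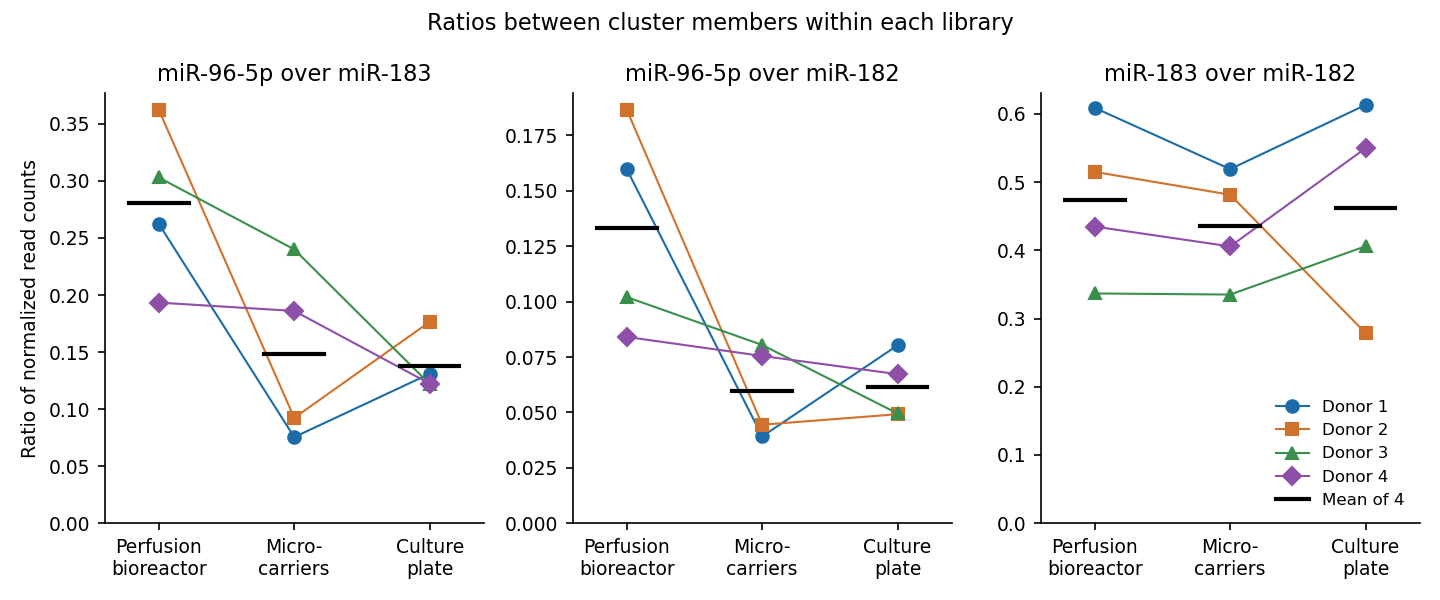
Ratios of normalized read counts between cluster members in each of the 12 libraries, by culture method, with 1 line per donor and a black bar at the mean of 4. Both ratios with miR-96-5p on top are highest in perfusion in every donor, and all 4 perfusion values of miR-96-5p over miR-182 (0.0841 to 0.187) exceed the other 8, while miR-183 over miR-182 spans 0.279 to 0.613 with overlapping cultures.

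Donors were compared by their order within each culture. For miR-183 the order donor 1, 2, 4, 3 from high to low held in all 3 cultures. That exact repeat of any donor order across cultures was seen for 5 of 252 miRNAs (1.98%), among them the miR-9 row and its copies named miR-9-1 and miR-9-2, whose values are identical. The same order held for miR-96-5p and miR-182 in 2 of 3 cultures each, in perfusion and on plates. Some of these ranks rest on small gaps or few reads. For miR-183, donors 2 and 4 stood at 207 and 194 on microcarriers and at 83.8 and 76.5 on plates. Plate donor 2 held 17 reads of miR-183, with an exact 95% Poisson interval of 9.90 to 27.2 reads, and 3 of miR-96-5p. Counting error was not carried into the orders. Donor 3 was lowest in all 3 cultures for miR-183 and miR-182, as for 6.75% of all miRNAs, and the microcarrier library was the highest of its donor in all 4 donors for the same 2 members and for 8.33% of all miRNAs. Library depth was 1408243 to 2244584 reads in donor 1 and 264407 to 1685279 in donor 2. It was 780897 to 1905814 in donor 3 and 607776 to 3253003 in donor 4. The part of depth in the donor order was not tested.

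Divided into sums of squares of log2(value + 1), the spread of miR-183 over the 12 libraries lay 70.8% between donors, 22.8% between cultures and 6.33% in neither. For miR-182 the shares were 48.5%, 39.7% and 11.7%, and for miR-96-5p they were 31.2%, 37.4% and 31.4%. The medians over all 252 miRNAs were 24.4% between donors and 39.0% between cultures. By donor share miR-183 ranked 14 of 252, miR-182 ranked 44 and miR-96-5p ranked 97. These shares are a description and were not tested.

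**Figure D4:**
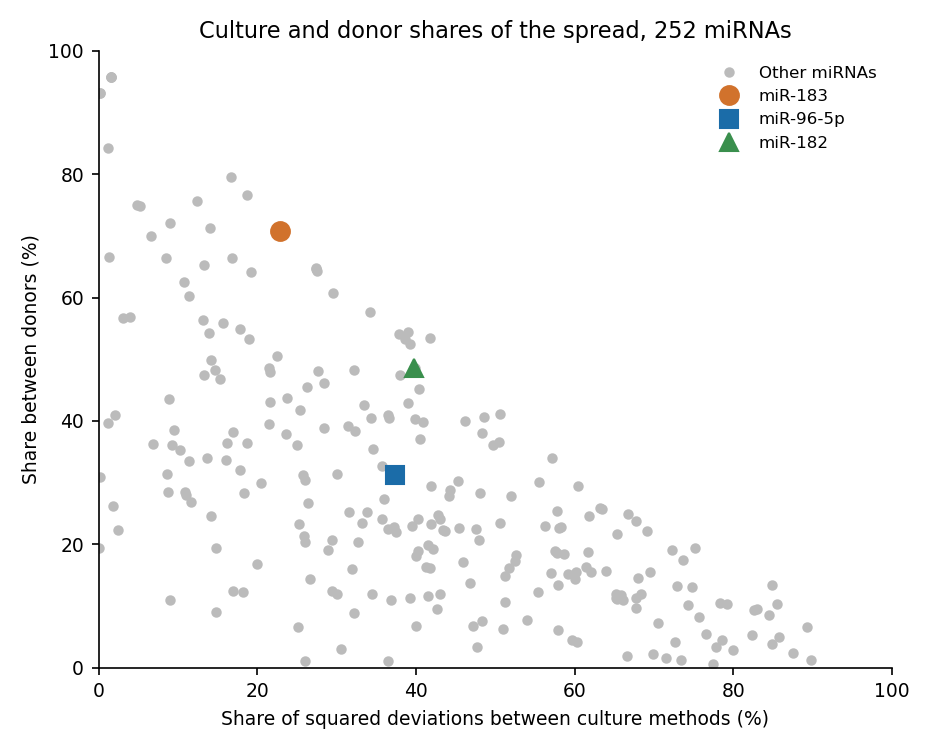
Share of the squared deviations of log2(value + 1) that lies between culture methods (x axis, %) and between donors (y axis, %) for each of the 252 miRNAs over 12 libraries, 1 point per miRNA. miR-183 sits high, at 70.8% between donors against a median of 24.4% for all, with miR-182 at 48.5% and miR-96-5p at 31.2%.

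Within the cluster, miR-183 and miR-182 resembled each other most. Over the 12 libraries, which share donors and cultures, their log2 levels correlated at a Pearson r of 0.91, and each was the other's closest match among 251 miRNAs. Deviations from culture means correlated at 0.89, below the 0.92 of miR-183 with the miR-9 rows and the 0.93 of miR-182 with miR-27b-3p. miR-96-5p correlated with miR-183 at 0.67 and with miR-182 at 0.63, and stood at 0.78 with each within cultures. Among the miRNAs closest to miR-96-5p, miR-183 came 10th and miR-182 came 11th.

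The 5 miRNAs outside the cluster with the highest r were named for each member, as a description. Closest to miR-183 were the 3 identical miR-9 rows (a neural-enriched miRNA, r = 0.82, and 0.92 within cultures), miR-24-2-5p (0.82) and miR-27b-3p (0.82). Closest to miR-182 were miR-27b-3p (r = 0.89, and 0.93 within cultures), miR-23b (0.88), miR-27b-5p (0.82), miR-24-2-5p (0.82) and miR-221-5p (0.81). Closest to miR-96-5p were miR-155-5p, an inflammation-induced miRNA (r = 0.88, and 0.86 within cultures), miR-100 (0.85), miR-365-3p (0.78), miR-23b (0.77) and miR-29b (0.76).

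Of those neighbours miR-155-5p and miR-365-3p were called higher in perfusion than on plates (1.74 ± 0.39, limma adjusted p = 0.00784, and 2.24 ± 0.47, adjusted p = 0.00745). miR-27b-5p was called higher on microcarriers than on plates (2.93 ± 0.69, adjusted p = 0.0409) and lower in perfusion than on microcarriers (-4.10 ± 0.69, adjusted p = 0.00125), and miR-221-5p was called lower in perfusion than on microcarriers (-1.62 ± 0.48, adjusted p = 0.0360).

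Other miRNAs known from the settings of the cluster were followed as lists. Of 8 sensory and retinal miRNAs looked for, 6 were measured (miR-204, miR-181a, miR-181b and the 3 miR-9 rows), which are 4 distinct rows since the miR-9 rows are identical. Limma called none of them in any comparison, against 20.6% of the 252 miRNAs for perfusion against plate, 2.38% for microcarriers against plate and 15.5% for perfusion against microcarriers. With miR-9 counted once, their median log2 fold changes were -0.0053, -0.15 and 0.20 in the same order. Counted 3 times, miR-9 sets the median itself, at -0.22, 0.05 and -0.26. The smallest p of that list, and the only unadjusted p under 0.05, was that of miR-204 in perfusion against microcarriers (-2.44 ± 1.08, limma adjusted p = 0.149). Between microcarriers and plates miR-204 stood at 1.82 ± 1.08 (adjusted p = 0.308). Its levels were near the floor, at 0 to 9.71 normalized counts in perfusion, 3.83 to 30.5 on microcarriers and 0 to 12.6 on plates.

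Of 7 miRNAs known for repressing FOXO factors outside the cluster, all were found, as 9 rows. Names were matched in either arm, so both arms of miR-27b and miR-21 count, whichever arm is known for FOXO. In perfusion against plate 1 was called higher (miR-155-5p) and 3 lower, so 4 of 9 against 20.6% of the 252 miRNAs, with a median of -0.65. The smallest p were those of the myeloid miR-223, listed at 0 in all perfusion libraries, and the erythroid miR-486 (-4.34 ± 0.75, limma adjusted p = 0.00248). On microcarriers against plate 1 of 9 was called, miR-27b-5p as higher, against 2.38% of the 252, with a median of 0.73. In perfusion against microcarriers 4 of 9 were called, all lower, against 15.5% of the 252, with a median of -1.27. Its members miR-223 and miR-486 also stand on the blood cell lists.

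miR-1271-5p belongs to that list and is known in humans for sharing the seed of miR-96. It stood at 553, 398, 365 and 442 normalized counts in perfusion vesicles of donors 1 to 4, at 595, 546, 362 and 237 on microcarriers, and at 820.3, 552, 447 and 1076 on plates. It was lower than on plates in 4 of 4 donors in perfusion and on microcarriers, as 22.6% and 17.9% of the 252 miRNAs were, where miR-96-5p was higher in 4 of 4 in perfusion and in 3 of 4 on microcarriers. Neither of its fold changes passed, at -0.65 ± 0.36 in perfusion (limma adjusted p = 0.237) and -0.74 ± 0.36 on microcarriers (adjusted p = 0.241).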

How the data were processed

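Small RNA libraries were prepared with a NEBNext kit, per the labels' protocols, and the submitters' processing notes name Bowtie as aligner. The sources used here do not give its version, the build, the annotation or the way of counting. The authors deposited a linear signal per miRNA and library, headed normalized read count per the file headers. All values of a library were multiples of its own smallest unit (tolerance 0.001 reads), and the steps matched median-of-ratios size factors, so reads were recovered. The lowest values above 0 stood for 2 reads (5 in plate donor 4).

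All 12 libraries entered 1 limma 3.58.1 fit (R 4.3.3) with trend on log2(value + 1), with culture method as the only factor, after a filter that asked for a value of 1 in 4 libraries (passed by all 252), and p-values were adjusted by Benjamini-Hochberg over the 252. The fit was tested on simulated data that held no donor effect, so that test cannot show how it handles donors shared between cultures. Fold changes on this scale understate those of low miRNAs. Donors are separate animals, and same-numbered libraries share a donor, so donor numbers pair them. Deviations from culture means of same-donor libraries correlated at 0.02 to 0.67. Ratios were compared by exact permutation of 4 against 4 libraries, which does not use the pairing, and also paired by donor. Named outside the cluster were the 5 closest miRNAs per member and, for each list, its counts and the smallest p. A rule on shared seeds was not applied, as no mature sequences were used here. Members and lists were chosen with earlier results of these data known. Python 3.11.15, NumPy 2.4.6, SciPy 1.17.1, pandas 2.3.3 and matplotlib 3.10.9 were used. As alternatives, donor entered as a block, libraries were scaled to totals, the pseudocount or filter was changed, only 2 groups were fitted, or 1 library was dropped. After the data were seen, limma-voom on recovered reads was added.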

Additional observations from a re-analysis of the deposited data

Results flagged for a closer look

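Of 18 sets of 4 libraries (3 members and 3 ratios in 3 cultures), 3 held a library whose gap to its nearest neighbour as a share of the set's range was over Dixon's 95% critical value for 4 samples. Chance gives such a gap in about 1 of 20 sets. miR-96-5p in microcarrier vesicles of donor 4 stood high, at 36.2 normalized counts (5.22 as log2(value + 1)) against 18.4, 19.1 and 19.1 in donors 1, 2 and 3. That value rests on 16 reads, with an exact 95% Poisson interval of 9.15 to 26.0 reads. miR-182 in microcarrier vesicles of donor 3 stood low, at 238 normalized counts (7.90 as log2(value + 1)) against 430.2 to 479 in the other donors. The ratio of miR-96-5p to miR-183 in plate vesicles of donor 2 stood high, at 0.176 (-2.43 as a log2 ratio with a pseudocount of 1) against 0.122 to 0.131 in the other donors. It rests on 3 and 17 reads in the shallowest library.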

How the results depend on the processing

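Of 351 recomputed values, 320 kept their direction and their side of the threshold, or, as counts of calls, stayed within 1.5 times. No member was called with donor as a block (replicate block), under library totals, with pseudocounts of 0.1 or 10, with another filter, in fits of 2 groups, in limma-voom without a block or with any library left out. Limma-voom with the block called miR-96-5p in perfusion against plate (1.24), miR-183 (0.84) and miR-182 (0.96) on microcarriers against plate, and miR-182 in perfusion against microcarriers (-0.75). With libraries left out in turn, perfusion against plate ran from -0.028 to 0.66 for miR-183, from -0.040 to 0.45 for miR-182 and from 0.89 to 1.54 for miR-96-5p. Microcarriers against plate ran from 0.63 to 1.26 for miR-183, from 0.72 to 1.18 for miR-182 and from 0.52 (without plate replicate 3) to 1.13 for miR-96-5p. Perfusion against microcarriers ran from -1.001 to -0.24 for miR-183 and from -0.996 to -0.50 for miR-182, both smallest without perfusion replicate 3, and from 0.13 (without perfusion replicate 1) to 0.73 (without perfusion replicate 3) for miR-96-5p. The ratios that changed sign ran from -0.38 to 0.18 (miR-96-5p over miR-183) and -0.30 to 0.040 (miR-96-5p over miR-182) on microcarriers against plate, and for miR-183 over miR-182 from -0.15 to 0.22 (perfusion against plate), -0.27 to 0.11 (microcarriers against plate) and -0.018 to 0.26 (perfusion against microcarriers). In those cases the value with all 12 libraries was smaller than its error, and the cause was not tested. The 3 ratio differences at the smallest exact permutation p kept their sign in all alternatives. With a pseudocount of 10, miR-96-5p over miR-183 and over miR-182 in perfusion against plate shrank to 0.58 and 0.64 (exact permutation p = 0.0857 each), against 0.93 and 1.00. Paired by donor, 4 differences cannot give an exact permutation p below 0.125.

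Calls over all miRNAs numbered 52 in perfusion against plate (29 to 55 with a library left out, 29 without perfusion replicate 1 and 30 without perfusion replicate 3). On microcarriers against plate they numbered 6 (3 to 12 with a library left out, 12 when plate replicate 1 was dropped and 3 when plate replicate 3 or 4 was), 23 with the replicate block, 40 in limma-voom with it and 3 in the fit of 2 groups. In perfusion against microcarriers they numbered 39 (22 to 49 with a library left out, 24, 25 and 22 without perfusion replicates 1, 3 and 4), 59 with the replicate block and 75 in limma-voom with it. Scaled to library totals, that comparison gave 17 higher and 20 lower in place of 14 and 25, with the median of all miRNAs moved by 0.14. Relative to it, miR-183 and miR-182 stood at -0.58 and -0.69 under both scalings. Low reads limit miR-96-5p most, at 3 to 69 per library. Fits in edgeR and DESeq2 that the design foresaw were not run.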
